A study of Mus musculus with 28 samples.

Results

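Liver tumors of chow-fed mice were compared between mice with and without Il17ra deletion in hepatocytes. The 6 libraries were chosen by their labels alone, 3 tumors of dHEP mice (dHEP-155, dHEP-164 and dHEP-165) and 3 tumors of FF mice (FF-167, FF-168 and FF-169), out of 28 liver libraries in all. Values of these tumors are given in that order of animals throughout. The dHEP mice carried an albumin-promoter Cre together with 2 floxed alleles of Il17ra (AlbCre_IL17RA_floxflox), and the FF mice carried the floxed alleles without Cre (IL17RA_floxflox), so every mouse had the floxed gene. All were C57BL/6 mice injected at 2 weeks of age with 25 mg/kg of diethylnitrosamine (DEN), a carcinogen that hepatocytes activate, and fed chow for 18 weeks. The other libraries used here, for comparison only, were 4 dHEP and 4 FF tumors of mice on an alcohol diet, and 3 dHEP and 3 FF samples of non-tumor liver on chow. These mice had the same dose of DEN at the same age, and their feeding also lasted 18 weeks. The 3 chow dHEP mice gave both tumor and non-tumor liver, whereas FF non-tumor liver came from animals with other numbers. Each tumor library, called a tumor below, was 1 bulk RNA sample, and the labels do not say whether tumors were pooled. In such a sample the albumin promoter leaves the receptor gene intact in macrophages, endothelial cells, stellate cells and lymphocytes.

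Interleukin-17A is a cytokine of T cells and innate lymphocytes, and it signals through a complex of the receptor chains IL-17RA and IL-17RC. The adaptor Act1, encoded by Traf3ip2, links the complex to NF-kB and MAP kinases, which induce chemokines, lipocalin-2 and feedback inhibitors. In the liver the receptor is present on hepatocytes and on several kinds of non-parenchymal cells. The study addressed what the hepatocyte receptor contributes to DEN-initiated tumors.

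The values were CPM, counts scaled to 1000000 per library, and differences are dHEP minus FF on the log2(CPM + 1) scale with their standard error unless stated. The tumors held an estimated 14.81 to 17.13 M reads in dHEP and 16.56 to 17.82 M in FF (M, 1000000 reads), with 12219 to 13134 and 12620 to 12901 genes at 1 CPM or more. The tumors differed more within the dHEP genotype than within FF. Pearson r over genes was 0.905 to 0.941 between dHEP tumors and 0.940 to 0.968 between FF tumors, as a description across genes of libraries of similar depth. Between the genotypes it was 0.909 to 0.972, and the value of 0.972 joined dHEP-164 with FF-167 and with FF-169. The median standard deviation of a gene was 0.362 in dHEP and 0.237 in FF on the log2 scale. Tumor dHEP-165 stood apart from the other 5, with 186 genes at least 1 log2 unit above all of them and 263 below, and dHEP-155 followed with 221 above and 34 below. Among FF tumors FF-168 had 139 genes above and 63 below. The first principal component held 38.9% of the variance and placed dHEP-165 and dHEP-155 at opposite ends, with the 3 FF tumors between them.

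**Figure D1:**
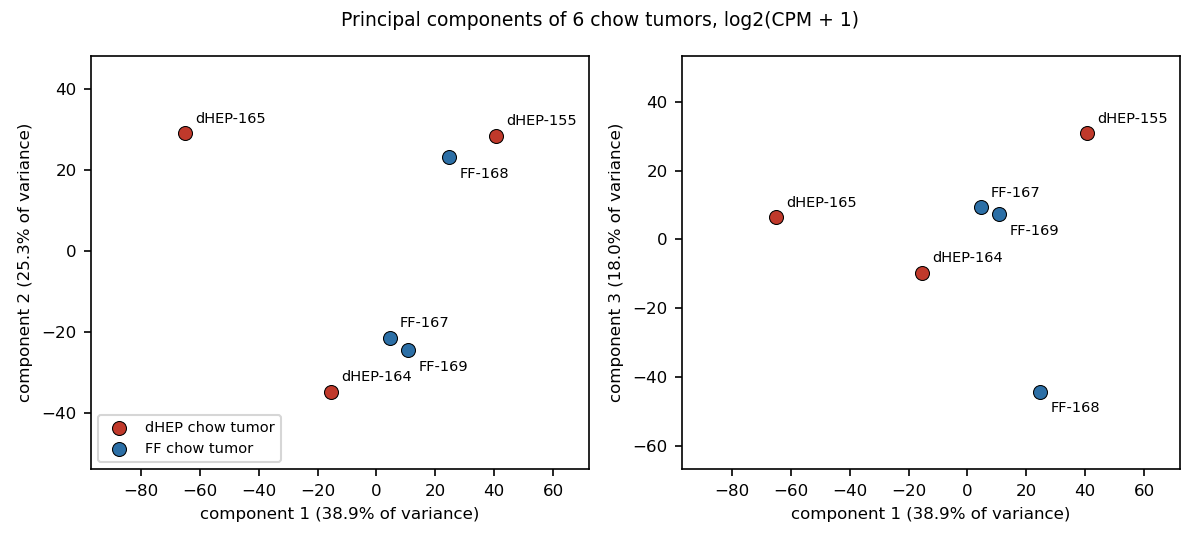
Scores of the 6 chow tumors on principal components 1 and 2 (left) and 1 and 3 (right) of log2(CPM + 1). Each point is 1 tumor library, and the axes give the percent of variance. On component 1 dHEP-165 lies at -65.2 and dHEP-155 at 40.5, and the FF tumors lie between 4.5 and 24.8.

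Il17ra, the targeted gene (ENSMUSG00000002897, GRCm38 chr6:120463247-120487559), overlapped between the genotypes in chow tumors. It read 29.4, 13 and 15.4 CPM in dHEP tumors, against 29.9, 20.8 and 30.1 CPM in FF tumors. The tumor dHEP-155 thus lay inside the FF range while dHEP-164 and dHEP-165 lay below it. The dHEP mean was 19.3 ± 8.83 CPM and the FF mean 26.9 ± 5.36 CPM (SD, n = 3 each), which is 71.5% of the FF mean and a log2 difference of -0.53 ± 0.38. The exact two-sided permutation p was 0.2, where 3 against 3 cannot go below 0.1. Without dHEP-155 the difference was -0.86 (unadjusted p = 0.0455, adjusted p = 0.575 by limma), and without dHEP-164 it was -0.305 (unadjusted p = 0.482, adjusted p = 0.896). In non-tumor liver of the same diet Il17ra read 8.34, 10.4 and 9.98 CPM in dHEP and 23.1, 20.2 and 14.7 CPM in FF, with no overlap. The genotype difference was -0.92 there, and the difference between the tissues was 0.40 ± 0.40 (unadjusted p = 0.34 by limma). In bulk samples, fewer cells of a type and less RNA per cell cannot be told apart, so the values do not say how many receptor-deleted hepatocytes a tumor held.

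Genes on the receptor and its direct output did not separate the genotypes either. Il17rc, the partner chain, read 19.4, 14.9 and 16.8 CPM in dHEP and 21.6, 16.7 and 20.8 CPM in FF. Traf3ip2, the adaptor gene, read 6.13, 1.58 and 2.75 CPM in dHEP and 3.63, 2.58 and 4.03 CPM in FF. All 7 tested genes of the receptor complex and its adaptors overlapped, with a median difference of -0.09. Of the 15 tested chemokine and NF-kB feedback genes that interleukin-17 induces, 5 had the higher mean in dHEP and 10 in FF, all 15 overlapped, and their median was -0.07. Cxcl1, a neutrophil chemokine, read 70.5, 60.6 and 26 CPM in dHEP and 40, 44 and 36.9 CPM in FF. Its difference was 0.26 ± 0.51 on chow and -1.47 ± 0.44 on the alcohol diet, and the 2 differed by 1.73 ± 0.68 (unadjusted p = 0.024 by limma). Ccl20, a lymphocyte chemokine, read 12.2 CPM in dHEP-155 and at most 1.51 CPM in the other 5 tumors.

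Lcn2, encoding lipocalin-2, ranged more within a genotype than between them. It read 2689, 206 and 28.8 CPM in dHEP tumors and 1554, 1618 and 354 CPM in FF tumors. The dHEP tumors thus held both the top value and the 2 lowest values of the 6. The difference was -1.92 ± 1.27 (unadjusted p = 0.15 by limma). Of the 24 lipocalin-2 and acute phase genes all overlapped, with 8 higher and 16 lower means in dHEP and a median of -0.15. A pair of acute phase genes had the same library order as Lcn2 in dHEP, Saa1 at 96.5, 12.1 and 0.908 CPM and Orm2 at 161, 1.59 and 0.378 CPM. In FF they read 21.9, 27.2 and 13.8 CPM for Saa1 and 5.23, 37.2 and 2.80 CPM for Orm2.

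**Figure D2:**
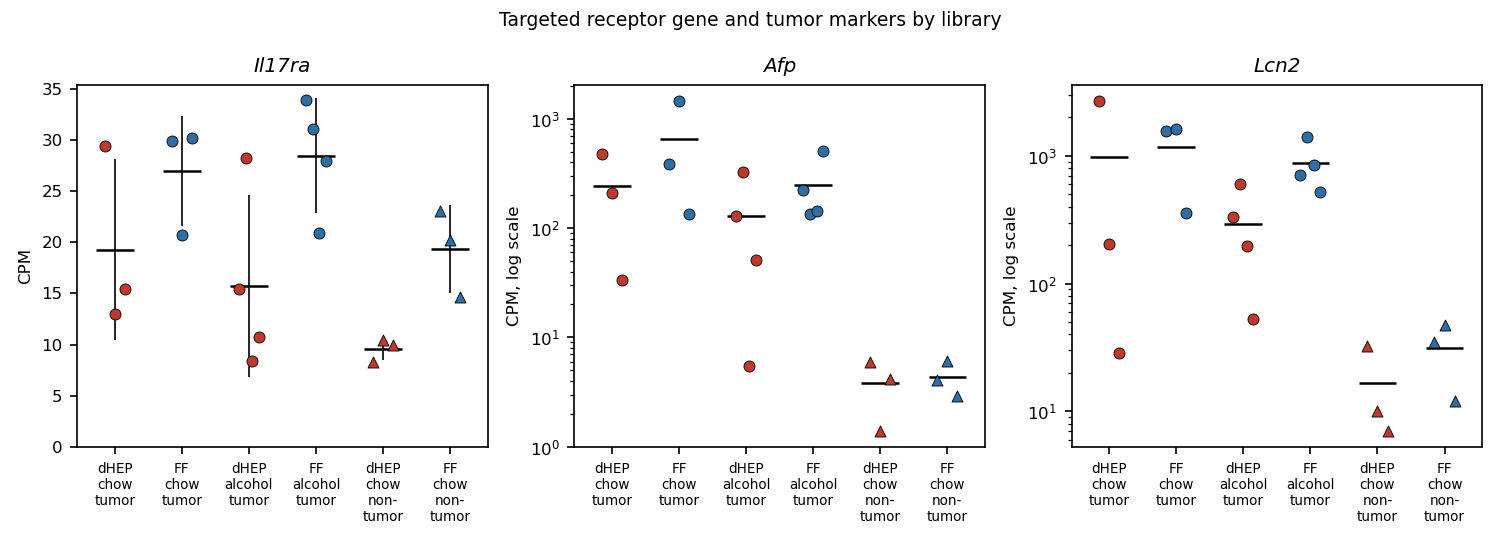
CPM of Il17ra (linear axis), Afp and Lcn2 (log axes) in each library of 6 groups, with circles for tumors, triangles for non-tumor liver, red for dHEP, blue for FF, horizontal bars at the mean and vertical bars of 1 SD for Il17ra. In chow tumors Il17ra, Afp and Lcn2 overlap between the genotypes, with Lcn2 from 28.8 to 2689 CPM within dHEP.

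No gene passed in chow tumors. Of 13205 genes tested by limma in a fit of the 14 tumors of both diets, 0 (0%) had an adjusted p below 0.05, and the smallest adjusted p was 0.9996. An unadjusted p below 0.05 was found for 378 genes (2.86%), 133 higher (1.01%) and 245 lower (1.86%) in dHEP. The mean was higher in dHEP for 6330 genes (47.9%) and lower for 6875 (52.1%), with a median difference of -0.01 over all genes. Every dHEP tumor lay above every FF tumor for 285 genes (2.16%) and below for 433 (3.28%). With a difference of at least 1 log2 unit these were 16 (0.121%) and 55 (0.417%). Among the alternatives run, only the fit without dHEP-164 gave calls between these chow tumors, for 4 genes that were high in dHEP-155 and dHEP-165, and none of them passed with dHEP-164 in the fit. Pcdha11, a clustered protocadherin whose last exons are shared with its neighbours, read 12.3, 0.0584 and 45.05 CPM in dHEP tumors and 0.117 to 0.362 CPM in FF tumors. Without dHEP-164 its difference was 4.33 ± 0.461 (adjusted p = 0.0078 by limma). Apcs, encoding the pentraxin serum amyloid P, read 357, 60.3 and 1009 CPM in dHEP and 99.3, 78.6 and 45.4 CPM in FF (adjusted p = 0.035 without dHEP-164). The others were Dzip1l and Pkhd1l1. Genes are named below as descriptions of these 6 libraries, with the unadjusted p where it is given. The differences between diets and between tissues hold the same chow-tumor values. For genes named by those values, the unadjusted p of these contrasts is therefore no separate support.

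Hspa1a, Atf3 and Hspb1 had the largest differences among the genes above FF in every dHEP tumor. Hspa1a, an inducible cytosolic chaperone of the HSP70 family, read 9.72, 12 and 81.4 CPM in dHEP tumors and 0, 7.31 and 1.96 CPM in FF tumors. Its difference was 2.96 ± 0.89 (unadjusted p = 0.0054), and it shares near-identical sequence with Hspa1b, so the split of reads between them is uncertain. Hspa1b, given for that reason, read 18.5, 36.5 and 148 CPM in dHEP and 13.2, 19.8 and 23.6 CPM in FF, with an overlap. Hspb1, a small heat shock protein, read 23.1, 8.64 and 72.5 CPM in dHEP and 3.45, 6.40 and 6.16 CPM in FF. Atf3, a stress-induced transcription factor, read 16.5, 16.5 and 231 CPM in dHEP and 6.43, 15.1 and 5.07 CPM in FF. In each of these 4 genes dHEP-165 held the top value of the 6 tumors. Ddit3, encoding the stress factor CHOP and chosen after its values were seen, overlapped but was also highest in dHEP-165, at 17, 11.8 and 162 CPM in dHEP and 11.8, 18.6 and 11.2 CPM in FF.

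The 10 higher genes with the largest differences also included 7 genes of varied function. Chrm3, the muscarinic acetylcholine receptor M3, read 13.8, 9.28 and 12.2 CPM in dHEP and 5.03, 0.449 and 5.80 CPM in FF (1.69 ± 0.69, unadjusted p = 0.028). Bhlha15, encoding the secretory-cell transcription factor MIST1, read 22, 17 and 11.7 CPM in dHEP and 5.50, 9.54 and 5.98 CPM in FF (1.15 ± 0.53, unadjusted p = 0.048). Hbegf, a ligand of the EGF receptor, read 9.65, 4.61 and 12.6 CPM in dHEP and 2.22, 3.31 and 2.54 CPM in FF. Every gene in this ranking was chosen for having no overlap, and for Hbegf the margin was 4.61 against 3.31 CPM. Col4a4, a basement membrane collagen chain, read 14.7, 9.98 and 9.79 CPM in dHEP and 4.38, 0.168 and 9.79 CPM in FF, so its groups barely separated. Cobl, an actin nucleator, read 72.5, 46.2 and 142 CPM in dHEP and 44.9, 17.6 and 41 CPM in FF. Sh3bp4, which acts in receptor endocytosis, read 29.4, 14.9 and 44.2 CPM in dHEP and 9.29, 9.43 and 13.9 CPM in FF. The margin was again narrow for Cobl, and it was 14.9 against 13.9 CPM for Sh3bp4. Mug2, a plasma protease inhibitor of the murinoglobulin family whose copies are alike in sequence, read 987, 1666 and 964 CPM in dHEP and 715, 333 and 614 CPM in FF. Mug2 was also higher in chow non-tumor liver, where the genotype difference was 0.99 ± 0.29, beside 1.15 ± 0.54 in tumors.

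The 10 higher genes with the smallest p also included Hspa1a, Sh3bp4 and Cobl, described above. Dnajb9, described with the endoplasmic reticulum genes below, came first. Ltv1, needed for assembly of the small ribosomal subunit, read 19.4, 14.7 and 19.7 CPM in dHEP and 11, 12.6 and 7.91 CPM in FF (0.73 ± 0.20, unadjusted p = 0.0029). Cyp2j6, a cytochrome P450 that oxidises fatty acids, read 177, 86.2 and 109 CPM in dHEP and 63.7, 53.1 and 83.4 CPM in FF (0.84 ± 0.24, unadjusted p = 0.004). Ampd2, an AMP deaminase of purine metabolism, read 40.9, 37.4 and 50.7 CPM in dHEP and 26.5, 32.4 and 27 CPM in FF. The difference was below 1 log2 unit for Ltv1, Cyp2j6 and Ampd2. Dmd, the dystrophin gene, had means of 74.5 ± 25.8 CPM in dHEP and 44.8 ± 5.74 CPM in FF, Zfp182, a zinc finger gene, of 9.82 ± 3.48 and 4.04 ± 0.513 CPM, and Eif3j2, a translation initiation factor gene with a near-identical copy, of 33.8 ± 3.19 and 22.1 ± 1.498 CPM (SD, n = 3 each).

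Most genes of the unfolded protein response had higher values in dHEP chow tumors. When unfolded proteins accumulate in the endoplasmic reticulum, the sensors IRE1, PERK and ATF6 raise chaperones, degradation factors and folding enzymes, and hepatocytes depend on them for the secretion of plasma proteins. Of 34 tested members 28 had a higher mean in dHEP, beside 47.9% of all genes. Every dHEP tumor lay above every FF tumor for 10 members, beside 2.16% of all genes, and below for 0. An unadjusted p below 0.05 was reached by 7 higher members and 1 lower one, beside 1.01% and 1.86% of all genes, and an adjusted p by 0. The median difference was 0.38, beside -0.01 over all genes, and between 0.25 without dHEP-165 and 0.44 without FF-167 when each tumor was left out in turn. The median level of the list was 7.75, 7.29 and 7.77 in dHEP tumors and 7.34, 7.0 and 7.07 in FF tumors in log2(CPM + 1). By this median dHEP-164 lay inside the FF range. The summed level was 12570, 12430 and 12900 CPM in dHEP and 11910, 9818 and 9261 CPM in FF, and by this sum every dHEP tumor lay above FF. Abundant members weigh most in the sum. Hspa5 alone read 1403 to 2542 CPM in dHEP and 949 to 1085 CPM in FF, so this separation is not independent of it. Without Hspa5 the summed levels of the genotypes overlapped. In chow non-tumor liver the list lay on the same side, with a median of 0.17 and 29 members higher in dHEP. The median over all genes was 0.03 there. Hspa5 read 795 to 1387 CPM in dHEP and 574 to 731 CPM in FF non-tumor liver, with no overlap. Dnajb9 overlapped there, at 42.6 to 85.9 CPM in dHEP and 33.3 to 46.9 CPM in FF. The direction of this list on each diet was known from earlier work on these data, so its values are no independent evidence of it.

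Dnajb9, the folding cofactor ERdj4 of the chaperone BiP (ENSMUSG00000014905, GRCm38 chr12:44205559-44210326), gave the clearest separation. It read 94.6, 115 and 95.3 CPM in dHEP tumors and 46.6, 57.3 and 59.2 CPM in FF tumors. The lowest dHEP tumor was thus well above the highest FF tumor, and the difference was 0.89 ± 0.24 (unadjusted p = 0.0029, adjusted p = 0.9996 by limma). Hspa5, encoding BiP itself (ENSMUSG00000026864, GRCm38 chr2:34771970-34777547), read 1403, 1847 and 2542 CPM in dHEP and 1085, 1065 and 949 CPM in FF (0.86 ± 0.29, unadjusted p = 0.011). Syvn1, the ubiquitin ligase HRD1 that marks misfolded proteins for degradation, read 106, 49.4 and 51.7 CPM in dHEP and 31.9, 34.7 and 41.5 CPM in FF (0.84 ± 0.33, unadjusted p = 0.024). Top values were in dHEP-165 for Hspa5 and in dHEP-155 for Syvn1, so no tumor led all of these genes. Eif2ak3, the sensor PERK, read 47.3, 41.2 and 46.6 CPM in dHEP and 31.7, 32 and 33.8 CPM in FF. Pdia3, a disulfide isomerase, read 505, 318 and 337 CPM in dHEP and 295, 291 and 240 CPM in FF. Hyou1, a chaperone that works with BiP, read 436, 456 and 402 CPM in dHEP and 359, 279 and 296 CPM in FF. The difference was 0.45 ± 0.17 for Eif2ak3, 0.46 ± 0.20 for Pdia3 and 0.48 ± 0.23 for Hyou1.

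The remaining members with no overlap were the secreted stress protein gene Manf at 0.52 ± 0.26, the translocon subunit gene Ssr1 at 0.35 ± 0.17, the vesicle coat gene Sec24d at 0.43 ± 0.18, and Atf3. Members of the response that overlapped included Xbp1, the transcription factor spliced by IRE1, at 335, 380 and 218 CPM in dHEP and 355, 331 and 382 CPM in FF. Hsp90b1, the chaperone GRP94, read 1246, 1449 and 1172 CPM in dHEP and 1403, 1027 and 852 CPM in FF. The transcript of Xbp1 was thus not among the higher values, and its splicing was not measured. Asns, the asparagine synthetase gene of the amino acid arm, ran against the list at 97.4, 7.77 and 1.35 CPM in dHEP and 160, 106 and 47.3 CPM in FF (-2.89 ± 1.16, unadjusted p = 0.026), with an overlap through dHEP-155.

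Promoter sequences are shown for 3 of the members that lay higher in every dHEP tumor, since a known element of the response, the endoplasmic reticulum stress element, lies in promoters of this class. They are the 250 bases before the RefSeq gene start on GRCm38.p6, 5′ to 3′ on the gene's strand. Capitals mark the fixed letters of the element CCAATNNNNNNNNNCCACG and, outside it, its core CCACG.

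Hspa5, chr2:34771840-34772089, plus strand: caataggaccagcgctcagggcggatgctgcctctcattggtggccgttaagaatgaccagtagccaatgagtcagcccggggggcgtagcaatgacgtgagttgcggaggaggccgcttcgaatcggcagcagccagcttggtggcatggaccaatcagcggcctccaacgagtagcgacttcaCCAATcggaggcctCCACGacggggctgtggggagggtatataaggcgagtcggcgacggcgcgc

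Syvn1, chr19:6046326-6046575, plus strand: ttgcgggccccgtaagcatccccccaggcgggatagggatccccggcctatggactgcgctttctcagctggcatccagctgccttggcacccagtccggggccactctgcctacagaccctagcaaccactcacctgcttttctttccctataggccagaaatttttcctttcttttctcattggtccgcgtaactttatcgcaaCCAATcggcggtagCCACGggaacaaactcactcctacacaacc

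Dnajb9, chr12:44210069-44210318, minus strand: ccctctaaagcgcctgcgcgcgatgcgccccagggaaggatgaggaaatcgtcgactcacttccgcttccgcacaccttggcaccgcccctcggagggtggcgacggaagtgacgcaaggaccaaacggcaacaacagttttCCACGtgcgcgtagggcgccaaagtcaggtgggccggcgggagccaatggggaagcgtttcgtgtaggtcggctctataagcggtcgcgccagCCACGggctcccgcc

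The element lay 65 to 47 bases before the start of Hspa5 and 44 to 26 bases before that of Syvn1. Dnajb9 held only the core, 108 to 104 and 15 to 11 bases before its start. GENCODE places the starts of Hspa5 and Dnajb9 further upstream than RefSeq, so their windows overlap its longest transcripts. Both strands were searched, and every match of the element contains a match of the core. Of the 34 members 30 had a promoter entry, and Atf6, Hyou1, Manf and Sec61a1 had none. The element was found in 8 of the 30 (26.7%) and in 18 of 10226 tested genes with an entry (0.176%), and the core in 20 of 30 (66.7%) and in 45.4% of tested genes. Members with no overlap between the genotypes held the element in 2 of 8 genes, and members that overlapped in 6 of 22. A match describes letters in the window and was not linked to the values.

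On the alcohol diet the same genes lay on the other side of FF. In alcohol-diet tumors the median of the 34 members was -0.49, with 33 lower in dHEP, beside a median of -0.02 over all genes. Dnajb9 read 50.6, 42.7, 78.5 and 44.8 CPM in dHEP tumors on alcohol and 75, 87.9, 78.6 and 130 CPM in FF tumors on alcohol. The difference between the diets was 1.67 ± 0.32 for Dnajb9 (unadjusted p = 0.00017) and 1.62 ± 0.38 for Hspa5 (unadjusted p = 0.00094). Eif2ak3 gave 0.90 ± 0.22 and Hyou1 1.17 ± 0.30. An unadjusted p below 0.05 for the difference between diets was reached by 19 of 34 members, 18 of them positive. Over all 13205 genes these were 653 (4.95%), with 343 positive (2.6%) and 310 negative (2.35%). No gene passed after adjustment (0%), where the smallest adjusted p was 0.642 by limma. Animal numbers differ by diet, so diet and cohort cannot be told apart. Some genes named earlier had the same pattern, with a difference between diets of 3.25 ± 0.91 for Chrm3, 2.42 ± 0.70 for Bhlha15 and 5.05 ± 1.18 for Hspa1a. Bhlha15 in dHEP tumors on alcohol read 1.74, 1.08, 8.24 and 1.2 CPM, so dHEP-549 stood apart there.

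**Figure D3:**
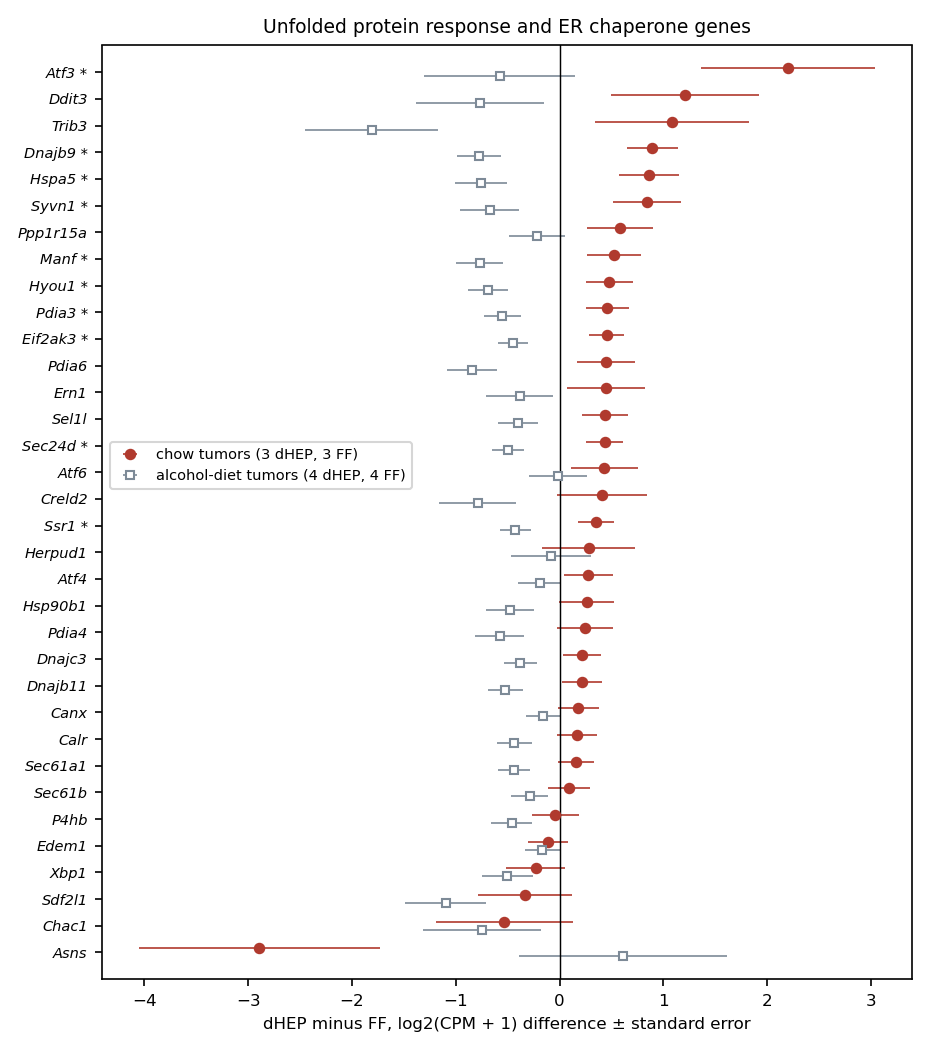
Difference dHEP minus FF in log2(CPM + 1) with its standard error for 34 unfolded protein response genes, filled circles for chow tumors and open squares for alcohol-diet tumors, and an asterisk where every dHEP chow tumor lay above every FF chow tumor. In chow 28 genes lie right of 0 and in alcohol-diet tumors 33 lie left of it.

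Pericentral genes, which surround the central vein and depend on Wnt signalling, had lower values in dHEP chow tumors. Of 17 tested members 16 had a lower mean in dHEP and every dHEP tumor lay below every FF tumor for 6, beside 3.28% of all genes. The median was -0.97, and between -1.10 without dHEP-164 and -0.62 without dHEP-165 when each tumor was left out in turn. An unadjusted p below 0.05 was reached by 3 lower members, beside 1.86% of all genes, and an adjusted p by 0. Axin2, a feedback inhibitor of Wnt signalling, read 1.85, 1.17 and 1.01 CPM in dHEP and 8.06, 2.46 and 3.32 CPM in FF (-1.15 ± 0.47, unadjusted p = 0.029). Notum, a secreted Wnt deacylase and Wnt target, read 2.74, 6.49 and 3.07 CPM in dHEP and 11, 6.96 and 8.01 CPM in FF (-0.97 ± 0.45, unadjusted p = 0.049). Both genes were low in all 6 tumors, and the margin for Notum was 6.49 against 6.96 CPM. Cyp2e1, the ethanol- and DEN-metabolising cytochrome P450, read 273, 405 and 329 CPM in dHEP and 683, 624 and 944 CPM in FF (-1.15 ± 0.75). Cyp1a2, another pericentral P450, read 26.9, 30 and 14.7 CPM in dHEP and 54.8, 44.9 and 95.6 CPM in FF (-1.40 ± 0.82). Slc13a3, a dicarboxylate transporter, read 8.28, 12.4 and 1.55 CPM in dHEP and 138, 12.4 and 35.8 CPM in FF, so dHEP-164 and FF-168 were nearly equal. Lhpp, a histidine phosphatase, read 6.08, 5.78 and 1.76 CPM in dHEP and 15, 19 and 12.3 CPM in FF. Glul, the glutamine synthetase of the innermost pericentral cells, overlapped at 223, 124 and 172 CPM in dHEP and 167.2, 272 and 275 CPM in FF. Lgr5, a receptor gene of the Wnt pathway, overlapped too, at 2.38, 3.10 and 0.675 CPM against 40.5, 2.13 and 5.68 CPM.

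The xenobiotic receptor genes Nr1i3 and Nr1i2 lay lower in every dHEP tumor. Nr1i3, encoding the xenobiotic receptor CAR (ENSMUSG00000005677, GRCm38 chr1:171213970-171220701), read 11.7, 15 and 3.98 CPM in dHEP tumors and 32.2, 54.6 and 47.3 CPM in FF tumors. Its highest dHEP value lay below its lowest FF value by more than a factor of 2, and the difference was -2.15 ± 0.61 (unadjusted p = 0.0034). Nr1i2, encoding the related receptor PXR, read 16.9, 37.8 and 38 CPM in dHEP and 54.1, 42.9 and 61.5 CPM in FF (-0.83 ± 0.29, unadjusted p = 0.013). The cytochrome P450 list that holds both had no common direction, with 14 of 28 members higher and 14 lower in dHEP and a median of 0.04. Cyp2b10, a target of CAR, read 0.955, 0.246 and 69.6 CPM in dHEP and 0.496, 1.65 and 1.96 CPM in FF. Its level thus stood out in dHEP-165, where Nr1i3 was lowest. Cyp2c55 was the 1 member above FF in every dHEP tumor, beside 2.16% of all genes, at 3.63, 3.21 and 4.53 CPM against 2.40, 1.40 and 1.69 CPM.

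These genes also differed in direction on the alcohol diet. Nr1i3 read 73, 154, 46.9 and 41.8 CPM in dHEP tumors on alcohol and 25.1, 65.7, 11 and 31.4 CPM in FF tumors on alcohol, so the difference between the diets was -3.43 ± 0.80 (unadjusted p = 0.00083). Nr1i2 gave -1.38 ± 0.38 and Notum -2.03 ± 0.59 for the same contrast. The pericentral list had a median of 0.43 in alcohol-diet tumors, with 14 of 17 members higher in dHEP. Its median was -0.19 in chow non-tumor liver, with 15 of 17 members lower in dHEP, the same side as in chow tumors. In chow non-tumor liver Nr1i3 read 147, 133 and 193 CPM in dHEP and 216, 340 and 220 CPM in FF, a difference of -0.70 ± 0.38 that also had no overlap. Non-tumor liver therefore held more Nr1i3 than any chow tumor in either genotype.

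**Figure D4:**
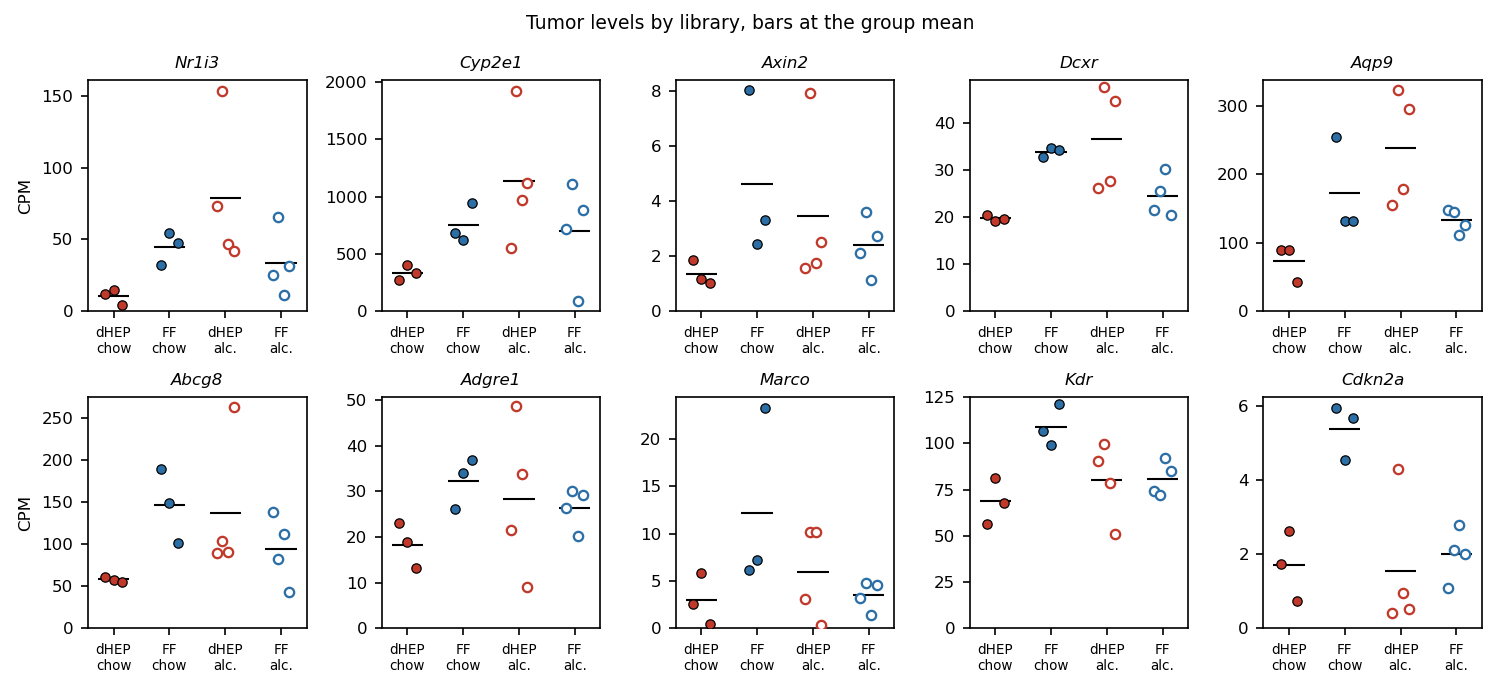
CPM of 10 genes that lay lower in every dHEP chow tumor, in each tumor library of 4 groups, with filled points for chow, open points for the alcohol diet, red for dHEP, blue for FF and bars at the group mean. The chow groups do not overlap in any panel, and the alcohol-diet groups overlap in all 10 except Aqp9.

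Sterol and nutrient transporters of hepatocytes were among the lower genes. Abcg5 and Abcg8, which encode both subunits of the canalicular sterol exporter, lay lower together. Abcg5 read 60.7, 59.2 and 39 CPM in dHEP and 170, 149 and 79.5 CPM in FF (-1.26 ± 0.45, unadjusted p = 0.014). Abcg8 read 61.4, 57.8 and 55.2 CPM in dHEP and 190, 150 and 102 CPM in FF (-1.28 ± 0.44, unadjusted p = 0.012). The genes lie head to head with a shared promoter region, so they are not independent observations. Slco1b2, a bile acid and drug importer, read 110, 118 and 73.1 CPM in dHEP and 300, 161 and 216 CPM in FF. Amacr, a racemase of bile acid synthesis, read 34.2, 50.7 and 52.3 CPM in dHEP and 73.3, 72 and 61.9 CPM in FF. These 4 were the non-overlapping members of 27 bile acid genes, of which 12 had higher and 15 lower means, with a median of -0.05, beside 3.28% of all genes that lay below FF in every dHEP tumor. Aqp9, the glycerol channel of hepatocytes, read 88.9, 89.7 and 42.7 CPM in dHEP and 255, 132 and 131 CPM in FF (-1.22 ± 0.35, unadjusted p = 0.004). On alcohol Aqp9 read 155.3, 324, 178 and 295 CPM in dHEP tumors and 148, 146, 111 and 126 CPM in FF tumors, and the difference between diets was -2.0 ± 0.47 (unadjusted p = 0.00083).

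Pck1, Igfbp1 and Pdk4, which fasting raises in liver, had lower values in every dHEP tumor. Pck1, the rate-controlling enzyme of gluconeogenesis, read 487, 796 and 188 CPM in dHEP and 888, 1762 and 1072 CPM in FF (-1.50 ± 0.68, unadjusted p = 0.045). Igfbp1, an insulin-repressed binding protein of IGF, read 1255, 1183 and 404 CPM in dHEP and 2520, 3153 and 2120 CPM in FF (-1.60 ± 0.72, unadjusted p = 0.042). Pdk4, a kinase that spares glucose from oxidation, read 7.74, 3.10 and 4.39 CPM in dHEP and 11, 11.3 and 8.82 CPM in FF (-0.97 ± 0.30, unadjusted p = 0.0059). Insr, the insulin receptor, lay the other way at 372, 315 and 357 CPM in dHEP and 267, 254 and 315 CPM in FF, where dHEP-164 and FF-169 were nearly equal. Of the 20 insulin and fasting genes 5 had higher and 15 lower means, with a median of -0.19 that ran from -0.44 without FF-169 to 0.002 without FF-167. Every dHEP tumor lay below every FF tumor for 2 of the 20, beside 3.28% of all genes, and above for 1, beside 2.16%. Pck1, Igfbp1 and Pdk4 were thus not all members of this list, and they were named because their groups did not overlap. Asl, an enzyme of the urea cycle, read 108, 125 and 111 CPM in dHEP and 136, 284 and 146 CPM in FF. Of 15 urea cycle and periportal genes 2 lay below FF in every dHEP tumor, beside 3.28% of all genes. In this list 13 of 15 genes had lower means, with a median of -0.28. That median ran from -0.76 without FF-167 to 0.058 without FF-168, and it was 0.033 without dHEP-155. Dcxr, a xylulose reductase, was tight within each group at 20.3, 19.1 and 19.6 CPM in dHEP and 32.7, 34.6 and 34.3 CPM in FF (-0.75 ± 0.23, unadjusted p = 0.0055). In non-tumor liver Dcxr read 83.7, 68.7 and 82.2 CPM in dHEP and 73.2, 68.5 and 65.5 CPM in FF, and the genotype difference differed between the tissues by -0.92 ± 0.17 (unadjusted p = 0.00017). Over all 13167 genes of that test 0 passed after adjustment (0%), and 400 (3.04%) had an unadjusted p below 0.05. Dcxr was named by its chow-tumor values, which that contrast also holds.

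Lipid synthesis and oxidation showed smaller shifts. Of 20 fatty acid synthesis genes 14 had a higher mean in dHEP, with a median of 0.20 that was -0.004 without FF-168. Acaca, the acetyl-CoA carboxylase, was the 1 without overlap, beside 2.16% of all genes that lay above FF in every dHEP tumor. It read 514, 384 and 857 CPM in dHEP and 339, 303 and 364 CPM in FF. Of 31 fatty acid oxidation genes 25 had a lower mean, with a median of -0.21 on chow, from -0.42 without dHEP-165 to -0.06 without dHEP-164, and 0.39 on alcohol. All 25 cholesterol synthesis genes overlapped, with a median of -0.01. Lipid droplet protein genes had lower means in 15 of 16 members, all overlapping, with a median of -0.20 that ran from -0.33 without dHEP-155 to -0.07 without FF-169.

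Markers of macrophages had lower values in dHEP chow tumors. Of 26 tested Kupffer cell and macrophage genes 25 had a lower mean in dHEP, with a median of -0.79 and a range of -1.06 to -0.55 when each tumor was left out in turn. Every dHEP tumor lay below every FF tumor for 3 members, beside 3.28% of all genes. An unadjusted p below 0.05 was reached by 5 lower members, beside 1.86% of all genes, and 0 passed after adjustment. Adgre1, encoding the macrophage marker F4/80, read 23, 18.9 and 13.2 CPM in dHEP and 26.1, 33.9 and 36.9 CPM in FF (-0.80 ± 0.44, unadjusted p = 0.088). Marco, a scavenger receptor, read 2.56, 5.84 and 0.473 CPM in dHEP and 6.14, 7.18 and 23.3 CPM in FF (-1.77 ± 0.78, unadjusted p = 0.04). Timd4, a marker of resident Kupffer cells, read 1.19, 1.46 and 0.946 CPM in dHEP and 1.58, 2.97 and 5.44 CPM in FF. The margins were narrow for all 3 genes. Clec4f, a Kupffer cell lectin, overlapped at 16.3, 32.6 and 24 CPM in dHEP and 19.9, 41.6 and 62.5 CPM in FF. None of the 26 genes was at 0 in all 6 tumors. In alcohol-diet tumors the list median was -0.19, with 19 of 26 members lower in dHEP. In chow non-tumor liver the list lay on the other side, with a median of 0.37 and 21 members higher in dHEP. The genotype difference of Adgre1 differed between the tissues by -1.49 ± 0.41 (unadjusted p = 0.004), and that of Timd4 by -1.50 ± 0.47 (unadjusted p = 0.0082).

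The 1 macrophage gene with a higher mean was Spp1, encoding osteopontin, which injured biliary and tumor cells also make. Spp1 read 3142, 344 and 119 CPM in dHEP and 106, 105 and 138 CPM in FF. It carried 3142 of the 4667 CPM of the macrophage list in dHEP-155. Without Spp1, a step chosen after its value was seen, the summed level was 1525, 853.6 and 359.5 CPM in dHEP and 960.9, 1836 and 1439 CPM in FF. The biliary and progenitor sum without Spp1 was 326 to 336.3 CPM in dHEP and 295.5 to 357.2 CPM in FF. The median level of the biliary list in log2(CPM + 1) was 4.10, 2.95 and 3.72 in dHEP and 3.67, 3.39 and 3.02 in FF, highest in dHEP-155, where Spp1 was highest too.

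Antigen presentation and lymphocyte genes lay lower on average but overlapped. All 9 tested MHC class II genes had a lower mean in dHEP, with a median of -1.02 that ran from -1.65 without dHEP-155 to -0.56 without dHEP-165, and dHEP-155 lay inside the FF range for every one of them. The other two dHEP tumors lay below FF for all of these genes except H2-Ob, a chain of the modulator H2-O. Cd74, the invariant chain, read 481, 121 and 79.1 CPM in dHEP and 293, 264 and 502.6 CPM in FF (-1.02 ± 0.59). The summed MHC class II level was 189.2 to 995.3 CPM in dHEP and 633.9 to 1120 CPM in FF. Of 21 T, NK, B and plasma cell genes 20 had a lower mean, with a median of -0.68 and no separation. That median was -0.27 without FF-169, -0.32 without dHEP-165, -1.07 without dHEP-155 and -1.09 without FF-168. Jchain, the joining chain of plasma cells, read 179, 146 and 9.25 CPM in dHEP and 582, 158.7 and 796 CPM in FF (-2.70 ± 0.98, unadjusted p = 0.016). The summed lymphocyte level was 81.11 to 337.2 CPM in dHEP and 280.2 to 1044 CPM in FF, with dHEP-165 lowest in both sums. On alcohol the MHC class II median was -0.32, with 8 of 9 members lower in dHEP. The lymphocyte median was -0.01 there, with 12 of 21 members lower. Of 30 interferon response genes 28 had a lower mean on chow, with a median of -0.50 that ran from -0.90 without dHEP-155 to -0.32 without dHEP-165. Their median on alcohol was -0.39, with 27 of 30 lower in dHEP. In chow tumors an unadjusted p below 0.05 was reached by 1 of the 30 genes, beside 1.86% of all genes on the lower side. Every dHEP chow tumor lay below every FF chow tumor for 3, beside 3.28% of all genes. They were Irf9, a subunit of the interferon-activated factor ISGF3, at 33.1, 26.6 and 30.2 CPM in dHEP and 38.9, 40.7 and 38.9 CPM in FF, Bst2, the antiviral tetherin, at 89.4, 78.8 and 83.5 CPM against 97, 103 and 99.7 CPM, and Ifi27l2a at 3.88, 2.52 and 1.42 CPM against 4.34, 7.20 and 4.48 CPM.

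Endothelial genes followed the macrophage genes in direction. Of 22 tested members 20 had a lower mean in dHEP, and the median was -0.37, and -0.23 without FF-169. Every dHEP tumor lay below every FF tumor for 3, beside 3.28% of all genes, and 0 passed after adjustment. The summed level of the list overlapped, at 906.8, 901.6 and 724.8 CPM in dHEP and 890.1, 989.8 and 1245 CPM in FF. Kdr, the VEGF receptor 2, read 56.7, 81.6 and 68 CPM in dHEP and 106, 99.1 and 122 CPM in FF (-0.67 ± 0.23, unadjusted p = 0.011). Tie1, an endothelial receptor kinase, read 23.3, 19.7 and 20.1 CPM in dHEP and 27.4, 34.5 and 25.7 CPM in FF, and Esam, an endothelial adhesion molecule, 18.9, 19.3 and 15.3 CPM in dHEP and 23, 26.1 and 20.5 CPM in FF. All 3 genes were named because their groups did not overlap, and the narrowest margin was that of Esam, 19.3 against 20.5 CPM. On alcohol Kdr read 90.4, 99.99, 78.7 and 51.1 CPM in dHEP tumors and 74.4, 72, 92.2 and 84.9 CPM in FF tumors, with an overlap. Its difference between the diets was -0.62 ± 0.30 (unadjusted p = 0.059). The endothelial list lay lower on alcohol too, with a median of -0.24 and 18 of 22 members lower in dHEP. An unadjusted p below 0.05 by limma for the difference between diets was reached by 0 of them, beside 4.95% of all genes. In chow non-tumor liver the endothelial median was 0.27, with 19 of 22 members higher in dHEP, and the genotype difference of Kdr differed between the tissues by -1.0 ± 0.33 (unadjusted p = 0.011). Cd300lg, an endothelial sialomucin, and Ly6a, encoding the surface antigen Sca-1, were among the lower genes with the smallest p. The mean of Cd300lg was 9.60 ± 2.59 CPM in dHEP tumors and 16.2 ± 3.31 CPM in FF tumors. That of Ly6a was 10.8 ± 5.01 CPM in dHEP tumors and 25.1 ± 5.80 CPM in FF tumors (SD, n = 3 each). Stellate cell and matrix genes had no common direction, with 18 higher and 15 lower means and a median of 0.05. The part of macrophage, lymphocyte and endothelial RNA in the unfolded protein response, pericentral and transporter gene differences was not tested.

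Tumor markers varied widely within each genotype. Afp, the fetal plasma protein alpha-fetoprotein, read 478, 208 and 33.4 CPM in dHEP and 386, 1448 and 133 CPM in FF (-1.48 ± 1.29, unadjusted p = 0.27). Gpc3, an oncofetal proteoglycan, read 454, 166 and 16.1 CPM in dHEP and 374, 482 and 71 CPM in FF (-1.11 ± 1.73, unadjusted p = 0.53), and without dHEP-165 its difference was 0.23. Tumor dHEP-165 was lowest for both, though all 6 tumors exceeded the 6 non-tumor livers on chow for Afp, which ranged from 1.41 to 6.07 CPM there. Of 22 oncofetal genes 17 had a lower mean, with a median of -1.01 that ran from -1.50 to -0.25 when each tumor was left out. Vil1, encoding the microvillus protein villin, was the 1 without overlap, beside 3.28% of all genes that lay below FF in every dHEP tumor. It read 1.13, 0.467 and 0.810 CPM in dHEP and 1.40, 9.99 and 1.51 CPM in FF. Hepatocyte plasma protein genes were abundant in all 6, with Alb, encoding albumin, at 67800 to 118700 CPM in dHEP and 99470 to 111700 CPM in FF. The 34 cell cycle genes all overlapped with a median of -0.10, and Mki67, the proliferation marker, read 148, 113 and 86 CPM in dHEP and 168.1, 108 and 70.1 CPM in FF.

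Cdkn2a, the locus of the cell cycle inhibitors p16 and p19ARF, was low but separated. It read 1.73, 2.63 and 0.743 CPM in dHEP and 5.96, 4.54 and 5.68 CPM in FF (-1.30 ± 0.44, unadjusted p = 0.011). At the estimated depth 1 CPM stood for 14.81 to 17.82 reads in these tumors. In non-tumor liver it read 0.148 to 0.659 CPM in dHEP and 0.313 to 0.592 CPM in FF, and the genotype difference differed between tissues by -1.32 ± 0.39 (unadjusted p = 0.0055). Of 21 p53 target genes 19 had a lower mean, with a median of -0.30 that ran from -0.55 without dHEP-155 to -0.13 without FF-168. Ei24, a p53-induced autophagy gene, was the 1 without overlap, beside 3.28% of all genes that lay below FF in every dHEP tumor. It read 66.6, 68.6 and 84.5 CPM in dHEP and 86.5, 105.5 and 89.3 CPM in FF.

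Among the lower genes with the largest differences, dHEP-165 held the lowest value of each gene described here. Csn3, kappa-casein, read 28.3, 29 and 0.203 CPM in dHEP and 56.5, 258 and 40 CPM in FF, against at most 0.377 CPM in chow non-tumor liver. Psrc1, a mitotic microtubule protein, read 15.1, 10.6 and 0.878 CPM in dHEP and 26.6, 29.6 and 26.1 CPM in FF. Myo7b, a microvillus myosin, read 14.2, 13.4 and 0.878 CPM in dHEP and 27.2, 41.7 and 21 CPM in FF. All genes of this ranking were chosen for having no overlap, so dHEP-155 and dHEP-164 lay below the lowest FF tumor by that choice. Cacna1b, a neuronal calcium channel subunit, read 14.3, 42.2 and 1.08 CPM in dHEP and 75.4, 45.2 and 58.4 CPM in FF. Cyp17a1, a steroid hydroxylase, read 9.17, 38.1 and 0.810 CPM in dHEP and 74.1, 108 and 50.3 CPM in FF (-3.06 ± 1.25, unadjusted p = 0.029). On alcohol Cyp17a1 reached 1157 CPM in dHEP-550, beside 39.5 to 63.9 CPM in the other 3 dHEP tumors and 12.8 to 124 CPM in FF tumors. Ang and Rnase4, 2 secreted ribonuclease genes, share a promoter and 5′ exons, so their reads are not independent. Ang read 18.1, 16.8 and 6.55 CPM in dHEP and 57.6, 72.8 and 40 CPM in FF, and Rnase4 read 91.3, 85.9 and 33.3 CPM in dHEP and 268, 405 and 171 CPM in FF.

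The 10 lower genes with the smallest p also included Nr1i3, Aqp9, Dcxr, Pdk4, Cd300lg and Ly6a, described above. Pcsk5, a proprotein convertase, read 17.1, 17.2 and 9.86 CPM in dHEP and 22.9, 30 and 30.7 CPM in FF (-0.91 ± 0.25, unadjusted p = 0.0028). Cdk5rap1, a mitochondrial tRNA-modifying enzyme, read 8.40, 6.48 and 8.64 CPM in dHEP and 35.8, 15.4 and 26.1 CPM in FF (-1.53 ± 0.44, unadjusted p = 0.004). The dHEP values of Cdk5rap1 lay within a narrow band and the FF values spread by more than a factor of 2. Ypel4, a gene of the yippee-like family, and Tmem26, a transmembrane protein gene, were lower at means of 3.66 ± 2.02 and 1.96 ± 0.704 CPM in dHEP and 10.96 ± 4.16 and 5.03 ± 1.60 CPM in FF (SD, n = 3 each).

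Among the remaining lists few members separated. Circadian clock and output genes had the highest list median, 0.46, with all 19 overlapping. Dbp, a clock output gene, read 7.83, 51.4 and 55 CPM in dHEP and 12.9, 1.37 and 52.2 CPM in FF, and Arntl, a core clock activator, 37, 7.47 and 14.7 CPM in dHEP and 28.4, 53.8 and 10.8 CPM in FF. The tumor FF-168 was lowest for Dbp and highest for Arntl, and the time of day of sampling was not in the sources used here. Hypoxia, iron, glycolysis, biliary, neutrophil and red blood cell genes had medians between -0.63 and 0.17, and 27 of 35 respiratory chain subunits had lower means with a median of -0.14. Only Ndufs3, a complex I subunit, was without overlap among the 35 subunits, beside 3.28% of all genes that lay below FF in every dHEP tumor. It read 50.5, 48 and 57.9 CPM in dHEP and 58, 59.7 and 64.8 CPM in FF. In all, 38 lists were described, and 767 of their 821 genes were tested.

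**Figure D5:**
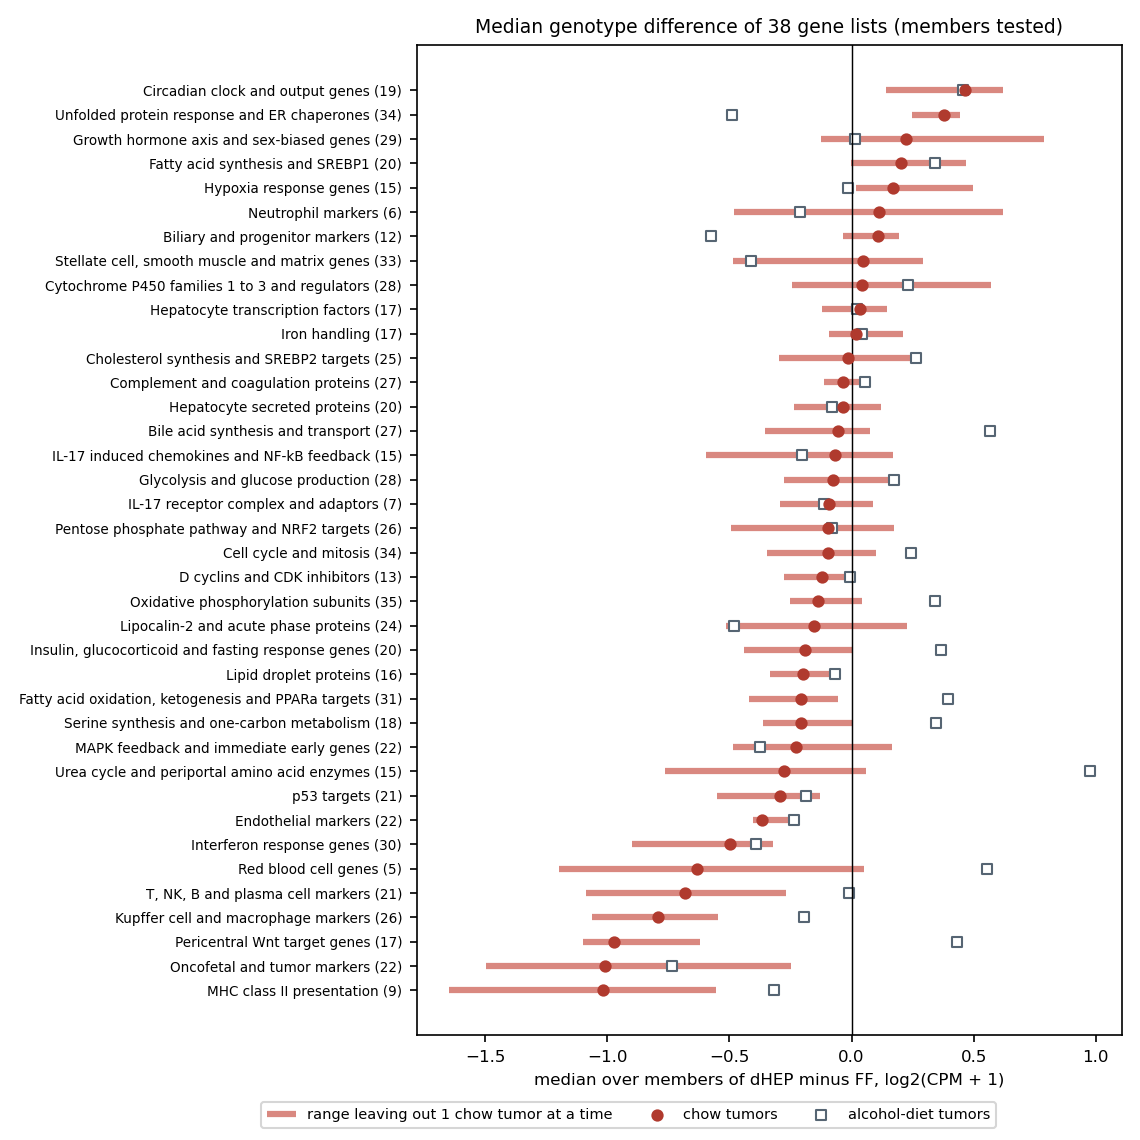
Median over list members of the difference dHEP minus FF in log2(CPM + 1) for 38 gene lists with the number of members tested, as red points for chow tumors, bars for the range when each chow tumor is left out in turn, and open squares for alcohol-diet tumors. The unfolded protein response lies at 0.38 on chow and -0.49 on alcohol, and the pericentral list at -0.97 and 0.43.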

How the data were processed

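RNA from liver tumors and non-tumor liver was sequenced, and per the submitters' processing notes the tools used on the reads were STAR (version 2.5.1a) and RSEM (version 1.3.0), with the GRCm38 genome. The deposited values are gene-level CPM for 22187 genes, made by the authors, each column summing to 1000000, and any further step is not given in the sources used here. The labels name polyA RNA and also a stranded total RNA kit. Symbols came from GENCODE for 21653 IDs. Depth was estimated from the most common low value, taken as 1 read, and 85.29% to 86.26% of low values in the 6 chow tumors were whole reads to within 0.1 read, so no count model was used. Reads are not independent molecules.

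A gene was tested where 3 or more fitted libraries reached 1 CPM, on log2(CPM + 1) with limma 3.58.1 in R 4.3.3 (moderated variances with a trend, Benjamini-Hochberg adjustment over all genes, threshold 0.05). The main fit held the 14 tumors in 4 groups and 13205 genes. A fit of the 12 chow libraries (13167 genes) gave the non-tumor and tissue contrasts. The replicate numbers were taken as animal numbers, the labels do not say whether tumors were pooled, and tumor and non-tumor liver of the same dHEP animal deviated together with correlations of 0.191, 0.0738 and 0.145 (animals 155, 164 and 165), so an animal block was an alternative for the tissue contrast. Named genes were Il17ra, the 10 higher and 10 lower with the largest difference and with the smallest p among genes with a symbol, no overlap and a higher-group mean of at least 5 CPM, up to 6 non-overlapping members per list, and Dnajb9, Hspa5, Afp, Gpc3 and Lcn2. Genes quoted with an overlap, and the list members beyond these, were chosen after their values were seen. Members and lists were chosen with earlier results of these data known. Promoters were RefSeq entries. The fits were tested on simulated data. Alternatives were a pseudocount of 0.5, no filter, a mean filter of 5 CPM, median-of-ratios scaling, sample weights, a fit of the 6 tumors alone and leaving out each tumor.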

Additional observations from a re-analysis of the deposited data

Results flagged for a closer look

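In alcohol-diet tumors of dHEP mice Bhlha15 read 8.241 CPM in dHEP-549, against 1.08 to 1.74 CPM in the other 3 tumors. Cyp17a1 read 1157 CPM in dHEP-550, against 39.5 to 63.9 CPM in the other 3. Each was far from the rest of its group by Dixon's criterion for 4 samples. Among the 36 alcohol-diet groups examined, those of the 18 genes whose alcohol-diet values were considered for the text, 2 (5.56%) stood out, and chance gives about 1 in 20. The chow groups of 3 were too small for this criterion.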

How the results depend on the processing

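No gene was called in any alternative except without dHEP-164, which gave 4 calls in chow tumors (range over the fits without 1 tumor 0 to 4) and 2 for the difference between diets (0 to 2). The 4 were Pcdha11 (adjusted p = 0.0078), Dzip1l (0.011), Apcs (0.035) and Pkhd1l1 (0.0483), all higher in dHEP-155 and dHEP-165, and their unadjusted p was 0.00742 to 0.0272 with all tumors. Non-overlapping genes with at least 1 log2 unit numbered 16 higher and 55 lower, and 29 to 172 higher and 59 to 531 lower without 1 tumor, where fewer samples make separation easier. The replicate block of the animal left the tissue contrast at 0 called genes. Il17ra ranged from -0.863 to -0.305 without 1 tumor. Of 75 named genes 74 kept their direction in each of the 12 alternatives that tested them, and 9 low genes were not tested in every one. The exception was Gpc3 at 0.229 without dHEP-165 (-2.140 to 0.229 without 1 tumor). Of 38 lists 14 kept the sign of their median in all 12, among them the unfolded protein response, pericentral, macrophage, MHC class II, lymphocyte and endothelial lists. List values moved beyond the spread between libraries in 9 of 456 cases. The number of genes with an unadjusted p below 0.05 was 378 with all tumors and 176 to 1106 without 1. Scaling by median of ratios shifted the median of all genes to -0.001.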
